A study of Mus musculus with 8 samples.

Results

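The genes described here encode the proteins of the cytosolic ribosome. They were chosen by symbol alone: the rows of the deposited all-samples expression table whose name is Rpl or Rps, with or without a p, followed by a number and at most 1 of the letters a, x, y or l, and whose mean over the 8 libraries was at least 1 FPKM (fragments scaled to transcript length and to the size of the library). Of 80 symbols of that form among the 24860 genes listed, 77 reached the minimum. They comprise 30 genes of the small subunit, 44 of the large subunit and 3 of the large subunit's stalk, and all 77 are among the 12858 genes of the table with a mean of at least 1 FPKM. The 3 symbols left out were Rpl39l at 0.0155 FPKM, Rpl32l at 0.146 FPKM and Rpl3l at 0.184 FPKM, and the 3 members nearest the minimum were Rps27l at 1.56 FPKM, Rpl6l at 9.86 FPKM and Rps20 at 13.4 FPKM. The pattern misses 6 genes with a core ribosomal protein under another name, among them Rpsa, Rps3a1, Fau, Rack1 and Rpl36al, which were followed beside the members.

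The RNA came from mouse retina, with RGCs (retinal ganglion cells) given as the cell type. In the AAV2-shCX36 group (n = 4) an AAV2 vector, a serotype widely used to reach ganglion cells from the vitreous, carried a short hairpin named for connexin 36, the main gap junction protein of neurons, and in the AAV2-scramble group (n = 4) it carried a scrambled hairpin. The labels used here give no injury, strain, age, sex, promoter, interval after injection or library batch, so what both groups may share beyond the vector is not known, and whether each library is 1 animal or a pool is not stated. The p-values therefore measure the spread between these 8 libraries.

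The gene for connexin 36, Gjd2, was measured at 38.7, 35.9, 17.4 and 18.2 FPKM in AAV2-scramble 1 to 4 and at 17.0, 14.0, 14.6 and 16.6 FPKM in AAV2-shCX36 1 to 4. The AAV2-shCX36 libraries all lay below the AAV2-scramble libraries, with AAV2-shCX36 1 next to AAV2-scramble 3, and AAV2-scramble 1 and 2 stood apart from AAV2-scramble 3 and 4. The same pair stood apart in oligodendrocyte markers, with a mean log2(FPKM + 1) over the 8 listed genes of 2.41 and 3.79 against 0.82 to 0.91 in the other 6 libraries. It was also the highest in the 7 bipolar cell markers, at 4.78 and 4.91 against 3.23 and 3.56 in AAV2-scramble 3 and 4 and 3.45 to 4.03 in AAV2-shCX36, and in the 8 microglia markers, at 5.70 and 5.72 against 4.72 and 3.67, and 3.56 to 4.23. The part of these cell types in the Gjd2 values was not tested. All 12 ganglion cell markers passed the expression minimum, but so did all 11 rod, all 7 cone and all 8 Müller glia markers, so the libraries were not ganglion cells alone. Of these lists, 8 of 11 rod, 3 of 7 cone and 5 of 8 Müller glia genes were lower in AAV2-shCX36 by the test used below and none was higher, and 0 of 12 ganglion cell genes passed. Over all genes tested, 2.52% were lower and 2.24% higher by that test. Of 8 microglia genes 1 was lower, and of 5 tested amacrine genes 1 was higher and 1 lower. In such bulk libraries, fewer cells of a type and less RNA per cell cannot be told apart. Summed FPKM ran from 282721 to 294055 per library, and 12331 to 13089 genes reached 1 FPKM.

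A ribosome consists of a small subunit, which reads the messenger RNA, and a large subunit, which joins the amino acids. Each holds ribosomal RNA made mainly by RNA polymerase I, and 1 copy of most of its proteins, so their genes are kept at closely matched levels. Most of these messenger RNAs begin with an unbroken run of pyrimidines (C and T in the gene), the TOP motif. Through it Larp1 and the mTORC1 kinase adjust their translation. Retinal neurons make protein at a high rate, since photoreceptors renew their outer segments and ganglion cells supply long axons, and ribosomal protein transcripts are also found within axons.

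The start sites of 9 members that recur below are shown because the run of pyrimidines is the feature these genes are known to share. Each line gives 30 bases of the gene strand from RefSeq on GRCm38.p6, written 5′ to 3′, with 15 bases before the annotated start and 15 from it on. Capitals mark runs of 6 or more C or T, and a line without capitals holds none.
Rpl9, chr5:65391417-65391446, minus strand: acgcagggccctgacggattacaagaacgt
Rpl34, chr3:130730323-130730352, minus strand: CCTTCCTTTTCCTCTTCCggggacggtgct
Rpl10a, chr17:28328456-28328485, plus strand: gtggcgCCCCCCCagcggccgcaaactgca
Rps3, chr7:99483695-99483724, minus strand: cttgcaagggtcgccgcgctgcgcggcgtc
Rps26, chr10:128626492-128626521, minus strand: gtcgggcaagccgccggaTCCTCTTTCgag
Rplp2, chr7:141447636-141447665, plus strand: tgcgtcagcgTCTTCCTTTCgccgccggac
Rpl7a, chr2:26910792-26910821, plus strand: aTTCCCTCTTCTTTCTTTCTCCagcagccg
Rps27, chr3:90213634-90213663, minus strand: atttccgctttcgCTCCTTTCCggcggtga
Rps27l, chr9:66946071-66946100, plus strand: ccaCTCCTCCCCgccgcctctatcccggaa

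RefSeq start windows were held for 56 of the 77 members, in 67 windows because some genes have several starts. Among them, 37 windows (55.2%) held a run of 6 or more pyrimidines, against 29.2% of all 32851 windows of the table. The genes with the smallest p-values below fell on both sides, where a window was held. Rpl34 has a run that spans the start shown, Rpl10a has one that ends before it, and Rpl9 and Rps3 have none in the window. Rps27a, with the smallest p of all members, is among those without a window. Rpl10a and Rps27l each have another annotated start whose window holds no run. A match describes letters only, and the first base actually transcribed in these retinas was not measured.

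A longer window, from 250 bases before to 50 bases after each start, was searched for 3 further motifs. CGGAAGT, the core bound by ETS factors such as GABP, stood on either strand in 21 of the 67 member windows (31.3%), against 6.42% of all windows. AAGATGGC, the core of the YY1 motif, stood on either strand in 7 (10.4%) against 2.75%, and TATAAA stood on the gene strand in 5 (7.46%) against 8.32%. The reverse complement of CGGAAGT is mostly pyrimidine, but its pyrimidines are too few in a row to count as a run above. The 4 stretches below show the CGGAAGT match in capitals upstream of members that range from 35.9 FPKM (Rps12) to 234.3 FPKM (Rpl41).
Rpl41, chr10:128549204-128549243, minus strand: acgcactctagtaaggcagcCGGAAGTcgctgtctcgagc
Rps12, chr10:23787300-23787339, minus strand: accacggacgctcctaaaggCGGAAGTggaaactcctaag
Rps6, chr4:86857438-86857477, minus strand: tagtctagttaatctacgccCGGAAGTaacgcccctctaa
Rpl37, chr15:5116571-5116610, plus strand: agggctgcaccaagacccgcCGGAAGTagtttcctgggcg

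The comparison asked whether the ribosomal protein genes differed between AAV2-shCX36 and AAV2-scramble retinas. None of the 77 members passed the test in either direction (limma on log2(FPKM + 1), Benjamini-Hochberg adjusted p under 0.05), against 612 of 12858 genes tested (4.76%), of which 288 (2.24%) were higher and 324 (2.52%) lower. At an unadjusted p under 0.05 there were 6 members lower, among them Rps27a, Rpl9, Rpl34, Rpl10a and Rps3, and 0 higher. Those 6 are 7.79% of the members, against 22.6% of all genes in either direction, 10.3% in the lower and 12.3% in the higher direction. The groups did not overlap for 4 members that were lower (Rps27a, Rpl9, Rpl10a and Rpl13a), where 7.05% of all genes were so, and for 1 that was higher (Rpl29), where 8.85% of all genes were so. All of these shares of members are at or below those of the table as a whole.

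The differences were small as well as short of the threshold. The median over members was -0.03 on the log2 scale, against 0.01 over all genes tested and 0.06 over the 2776 other genes between 21.67 and 207.8 FPKM, the range that holds most members. The median size without its sign was 0.06 for members and 0.13 for all genes. The 95% interval of the difference lay within 1.5-fold in either direction for 76 of 77 members (98.7%), all but Rps27a, against 78.6% of all genes and 87.1% of genes in the same range of levels. It lay within 1.3-fold for 69 of 77 (89.6%), against 50.9% and 65.3%. By sign, 52 members were lower and 25 higher. Thus 32.5% of members were positive, against 52.4% of all genes tested and 64.2% of genes in the same range of levels. This split of the members depended on the libraries kept. Without AAV2-shCX36 2 it was 35 lower and 42 higher, and the median was 0.01. It was 42 lower and 35 higher without AAV2-scramble 1, and 43 lower and 34 higher without AAV2-shCX36 3. Without AAV2-shCX36 4 it was 61 lower and 16 higher. The plot of all members by subunit shows the intervals side by side.

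**Figure D1:**
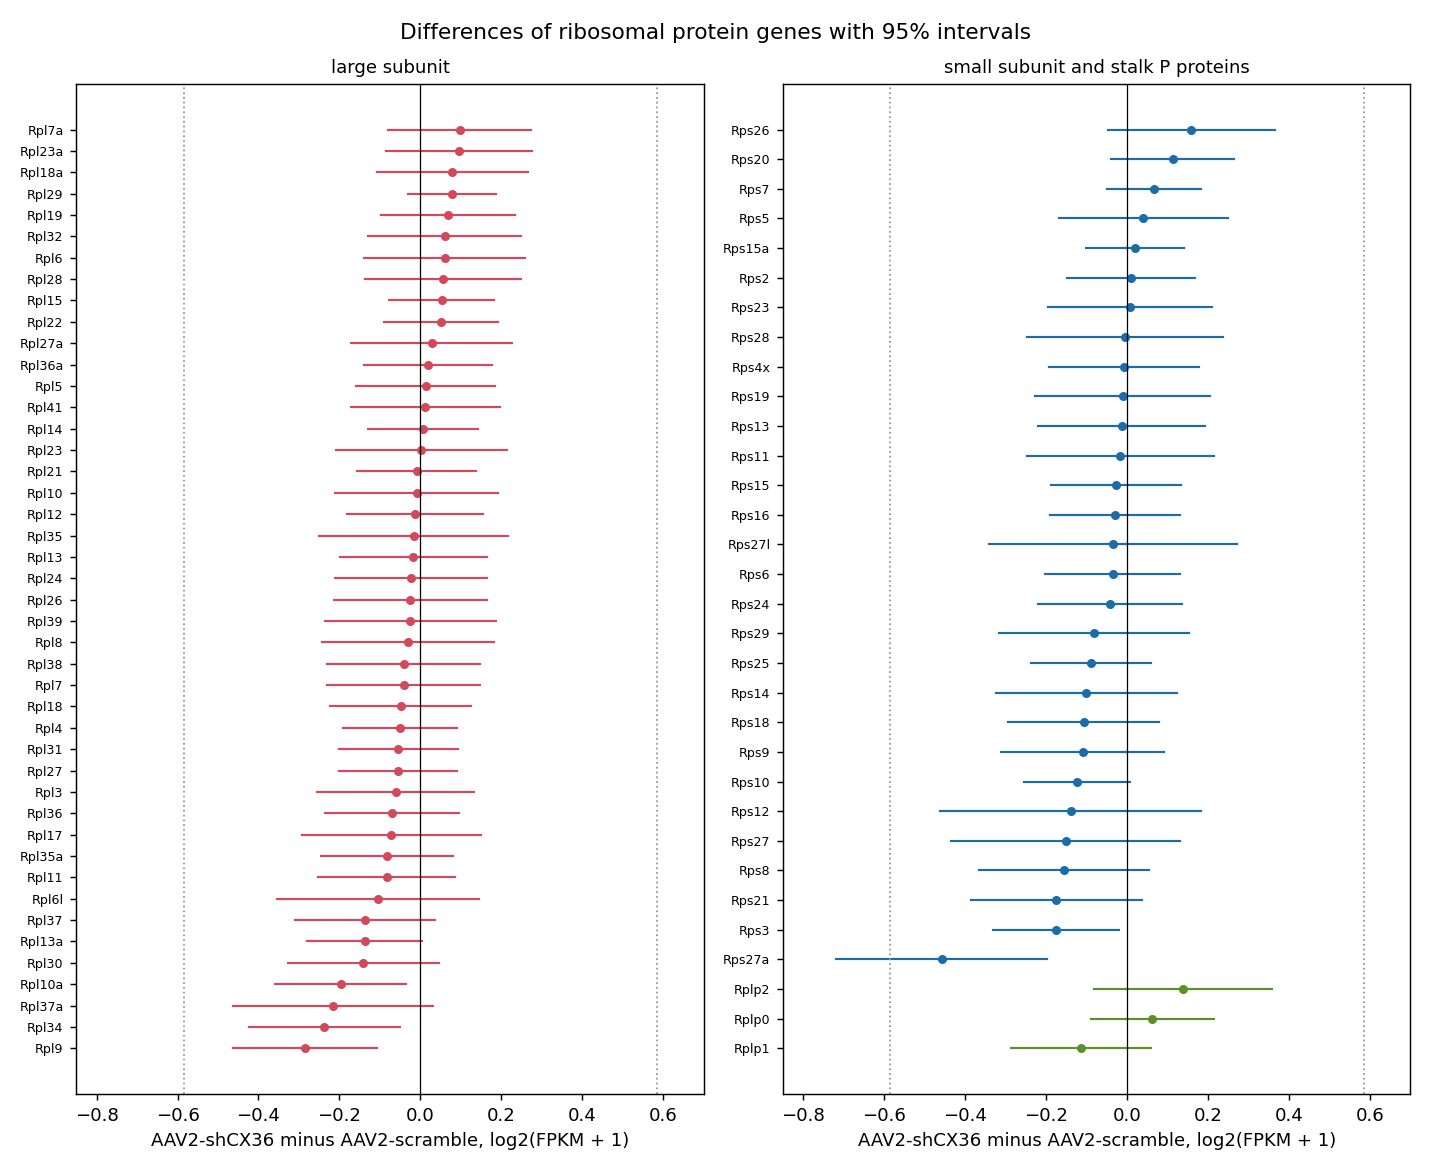
Difference between AAV2-shCX36 and AAV2-scramble (n = 4 each) in log2(FPKM + 1) for 76 of the 77 members, with its 95% interval from limma as a horizontal line; large subunit on the left, small subunit and stalk on the right. Dotted lines mark 1.5-fold in each direction, and only the interval of Rps27a passes one of them, reaching -0.72.

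Among the 30 small subunit genes the median difference was -0.04, with 23 negative and 7 positive. Rps27a, which encodes ubiquitin fused to a small subunit protein and so supplies both, had 91.3, 79.3, 83.4 and 67.4 FPKM in AAV2-scramble 1 to 4 and 61.4, 66.8, 55.9 and 48.9 FPKM in AAV2-shCX36 1 to 4. Every AAV2-shCX36 library lay below every AAV2-scramble library, with a narrow gap between AAV2-scramble 4 and AAV2-shCX36 2. The means were 58.2 ± 7.64 against 80.3 ± 9.97 FPKM (SD, n = 4 each), and the log2 difference of -0.46 (SE 0.12, 95% interval -0.72 to -0.20) had a limma p of 0.00309, adjusted p = 0.0582. It was called in 4 of 22 alternatives, among them the fit without AAV2-scramble 4 (limma adjusted p = 0.0257).

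Rps27a lies at chr11:29545846-29548109 on the minus strand (GRCm38), and Clhc1 on the opposite strand overlaps it in exon sequence. Whether the counting used strand is not stated, so reads of the pair may not be told apart. Of its transcript, 53.8% of 100-base windows also occur in another gene's transcript. The polyubiquitin gene Ubb was looked at only after the values of Rps27a were seen, and it differed by 0.06 (limma adjusted p = 0.760).

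Rps3, which sits at the entry of the messenger RNA channel, had 93.6, 87.1, 81.9 and 92.0 FPKM in AAV2-scramble 1 to 4 and 81.4, 70.9, 78.7 and 82.4 FPKM in AAV2-shCX36 1 to 4. The groups overlapped only between AAV2-scramble 3 and AAV2-shCX36 4, and the difference of -0.18 had a limma adjusted p of 0.174.

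On the positive side, Rps26, which lies where messenger RNA leaves the subunit, had 139.8, 120.1, 131.5 and 140.0 FPKM in AAV2-scramble 1 to 4 and 151.3, 127.8, 147.2 and 168.8 FPKM in AAV2-shCX36 1 to 4. AAV2-shCX36 2 fell inside the AAV2-scramble range, and the difference of 0.16 had a limma adjusted p of 0.336. Rps20 differed by 0.11 (adjusted p = 0.352) and Rps7, whose protein can bind Mdm2, by 0.07 (adjusted p = 0.483). Neither passed, and the groups overlapped for both. Rps6, the classic target of the kinase below mTORC1, and Rps19, the gene most often mutated in the inherited anaemia called Diamond-Blackfan, were added for these roles and not by the rule for named genes. Rps6 differed by -0.04 (95% interval -0.20 to 0.13) and Rps19 by -0.01 (95% interval -0.23 to 0.20).

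Among the 44 large subunit genes the median difference was -0.02, with 28 negative and 16 positive, and all 44 intervals lay within 1.5-fold. Rpl9, a protein close to the site where elongation factors bind, had 155.9, 138.4, 133.6 and 137.7 FPKM in AAV2-scramble 1 to 4 and 125.0, 106.4, 108.1 and 124.4 FPKM in AAV2-shCX36 1 to 4. The groups did not overlap, and AAV2-scramble 1 stood above the rest. The means were 116 ± 10.1 against 141 ± 9.92 FPKM (SD, n = 4 each), and the log2 difference of -0.29 (SE 0.08, 95% interval -0.46 to -0.11) had a limma p of 0.00555, adjusted p = 0.0784. The gene lies at chr5:65388364-65391444 on the minus strand (GRCm38).

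Rpl10a, a protein of the mobile L1 stalk, had 110.2, 120.2, 111.8 and 104.4 FPKM in AAV2-scramble 1 to 4 and 98.7, 86.9, 100.5 and 103.5 FPKM in AAV2-shCX36 1 to 4. AAV2-shCX36 4 and AAV2-scramble 4 lay next to each other without crossing, and the difference of -0.20 had a limma adjusted p of 0.153. Rpl34 had 28.4, 26.0, 25.9 and 23.2 FPKM against 20.9, 20.5, 20.9 and 24.9 FPKM, with AAV2-shCX36 4 inside the AAV2-scramble range and a difference of -0.24 (limma adjusted p = 0.138). Rpl13a, the fourth member without overlap on the lower side, differed by -0.14 (limma adjusted p = 0.233).

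Rpl29 showed how little some members varied. It had 41.5, 42.6, 44.8 and 43.9 FPKM in AAV2-scramble 1 to 4 and 45.0, 45.8, 45.4 and 46.5 FPKM in AAV2-shCX36 1 to 4. All AAV2-shCX36 libraries were higher, by a margin that was narrow at its closest point, and the difference of 0.08 had a limma adjusted p of 0.360. Rpl7a differed by 0.10 (adjusted p = 0.491) and Rpl23a, which lies at the mouth of the exit tunnel for the new protein, by 0.09 (adjusted p = 0.515). Rpl5 and Rpl11, which carry the smallest ribosomal RNA and bind Mdm2 when assembly is disturbed, were added for that role. Rpl5 differed by 0.01 (95% interval -0.16 to 0.19) and Rpl11 by -0.08 (95% interval -0.25 to 0.09).

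The 3 stalk genes encode the acidic proteins that recruit elongation factors to the ribosome. Rplp1, the most abundant of all members, had 265.3, 254.1, 258.5 and 263.5 FPKM in AAV2-scramble 1 to 4 and 259.0, 213.3, 231.6 and 261.5 FPKM in AAV2-shCX36 1 to 4. AAV2-shCX36 2 and 3 were the low ones, and the difference of -0.11 had a limma adjusted p of 0.412. Its partner Rplp2 had 110.3, 110.9, 88.4 and 112.5 FPKM against 118.3, 101.3, 118.6 and 125.9 FPKM, and the difference of 0.14 had a limma adjusted p of 0.430. Rplp0, the base on which both sit, differed by 0.06 (adjusted p = 0.616). The groups overlapped for all 3 stalk genes.

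**Figure D2:**
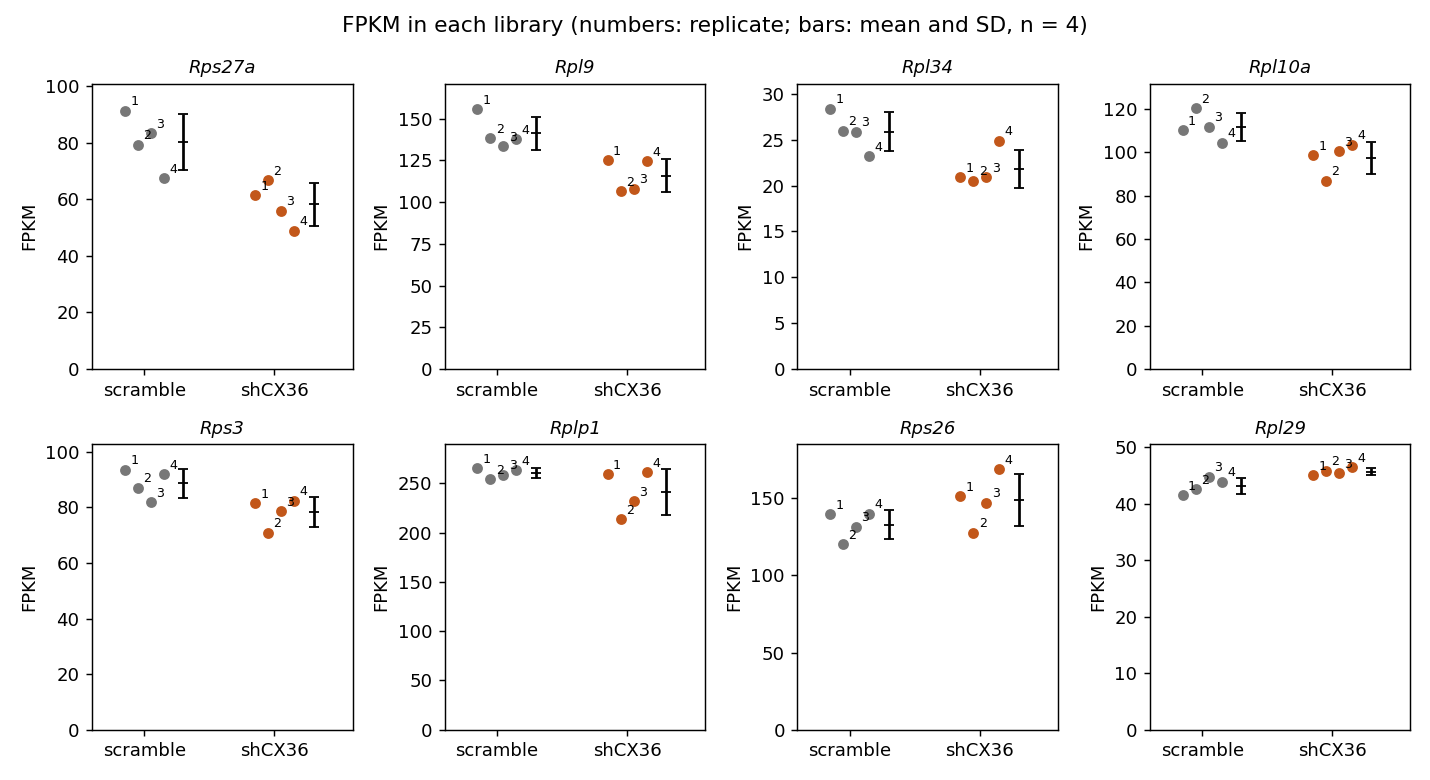
FPKM of 8 members in each of the 8 libraries, numbered by replicate, with the mean and SD of each group (n = 4) beside the points; the vertical axes start at 0. The groups are separate for Rps27a, Rpl9, Rpl10a and Rpl29 and overlap for the other 4, and none of the 8 passed the adjusted threshold.

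The members shifted together from library to library. Their mean log2(FPKM + 1) was 6.50, 6.37, 6.38 and 6.45 in AAV2-scramble 1 to 4 and 6.44, 6.25, 6.33 and 6.51 in AAV2-shCX36 1 to 4. The highest and the lowest library were both AAV2-shCX36, and the group means of 6.38 ± 0.11 and 6.43 ± 0.06 (SD, n = 4 each) differed by less than either SD. As a share of all FPKM, the members took 2.93, 2.69, 2.68 and 2.81% in AAV2-scramble 1 to 4 and 2.82, 2.51, 2.63 and 2.90% in AAV2-shCX36 1 to 4. AAV2-shCX36 2 held the lowest value of 45 of the 77 members and lay below the 8-library mean for 76. AAV2-shCX36 4 lay above it for 71 members and AAV2-scramble 1 for 64. Rps27a went against this order, with AAV2-shCX36 2 the highest and AAV2-shCX36 4 the lowest of its group. The same counts were not made over all genes tested, so how far other genes followed this order is not known. Summed FPKM was likewise lowest in AAV2-shCX36 2, at 282721, and highest in AAV2-shCX36 4, at 294055.

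**Figure D3:**
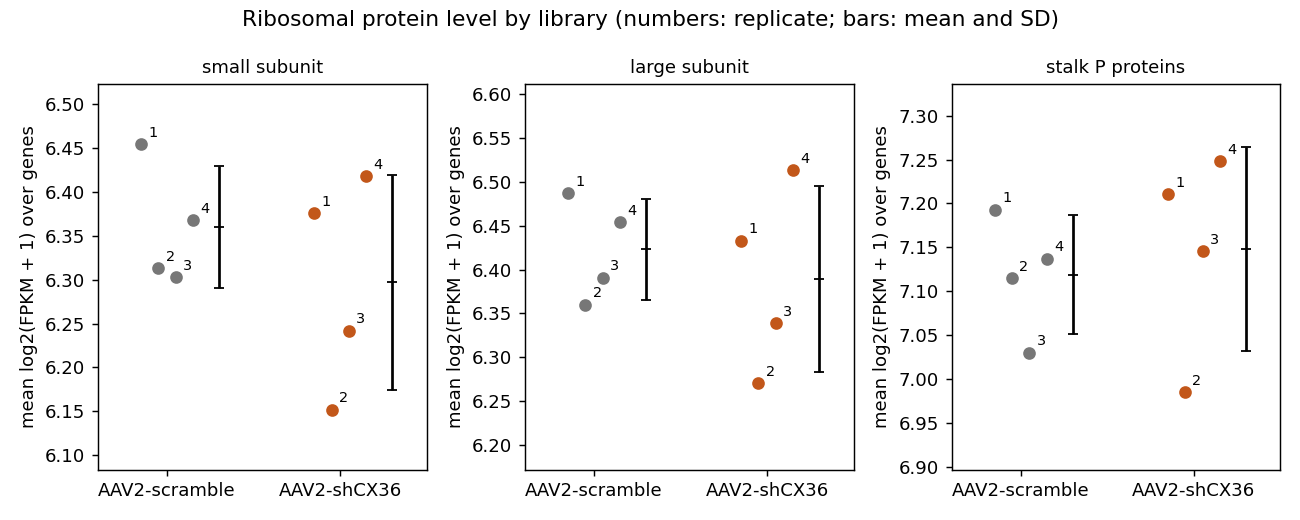
Mean log2(FPKM + 1) over the small subunit (30 genes), large subunit (44) and stalk (3) genes in each library, numbered by replicate, with the group mean and SD; each panel has its own vertical axis of the same span, which does not start at 0. In all 3 panels AAV2-shCX36 2 is the lowest library, and the spread within AAV2-shCX36 covers most or all of the AAV2-scramble values.

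AAV2-shCX36 2 was also the lowest library in rod, cone and Müller glia markers. The mean log2(FPKM + 1) of the 11 rod genes was 5.91 in AAV2-shCX36 2, 6.17 to 6.30 in the other AAV2-shCX36 libraries and 6.59 to 7.11 in AAV2-scramble. For the 7 cone genes it was 7.66, then 7.81 to 8.27, and 8.44 to 9.03. For the 8 Müller glia genes it was 3.21, then 3.72 to 3.87, and 4.17 to 5.05. The ganglion cell genes had 7.39 in AAV2-shCX36 2, the highest of the 8 libraries, where AAV2-scramble ran from 6.66 to 7.31. The 8 lens genes had 1.86 and 2.56 in AAV2-shCX36 1 and 4, the libraries of that group with the higher member levels, 0.86 and 0.98 in AAV2-shCX36 2 and 3, and 0.11 to 0.87 in AAV2-scramble. The part of any of these markers in the ribosomal protein levels was not tested.

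The median SD over the 8 libraries of a member's log2 level was 0.12, against 0.16 for all genes tested and 0.13 for genes in the same range of levels. After each library was centred on the members' mean, an alternative chosen after the data were seen, it was 0.08. Such centring lowers the members' spread by itself. The other genes were not centred on a mean of their own, so their values are not compared with this one. The largest SDs were those of Rps27a, Rps12 and Rps27. Rps12 had 45.1, 38.98, 29.8 and 37.1 FPKM in AAV2-scramble 1 to 4 and 35.5, 31.3, 28.2 and 41.4 FPKM in AAV2-shCX36 1 to 4. Rps27 had 128.4, 115.5, 102.7 and 116.3 FPKM against 109.8, 86.2, 94.3 and 129.7 FPKM. Both groups of Rps12 and of Rps27 overlapped widely, with differences of -0.14 (limma adjusted p = 0.596) and -0.15 (adjusted p = 0.503).

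By level per length, 64 members were among the 1000 highest genes of the table and 41 among the highest 500. The median member stood at 95.45 FPKM, 34 were at or above 100 FPKM and 12 were under 50 FPKM. Rplp1 at 250.9 FPKM was followed by Rpl41, whose product is a very short peptide, at 234.3 FPKM. Next came Rpl4, which lines the exit tunnel, at 230.6 FPKM, Rpl3, close to the catalytic centre, at 212.2 FPKM, and Rps29 at 206.8 FPKM. Their ranges over the libraries overlap, from 213.3 to 265.3 FPKM for Rplp1 and from 170.7 to 246.4 FPKM for Rps29. Compared within each library, Rplp1 lay above Rpl41 and Rpl4 above Rpl3 in every one. Rpl41 and Rpl4 changed places, with 248.0 and 234.4 FPKM in AAV2-scramble 1 but 217.9 and 226.2 FPKM in AAV2-scramble 2. At the low end, Rps27l, a paralog of Rps27, had 1.62, 1.63, 1.58 and 1.46 FPKM in AAV2-scramble 1 to 4 and 2.11, 1.09, 1.28 and 1.69 FPKM in AAV2-shCX36 1 to 4. The AAV2-shCX36 libraries lay on both sides of the closely spaced AAV2-scramble values, with a difference of -0.04 (limma adjusted p = 0.905).

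A level in FPKM depends on the transcript length assumed, which the sources used here do not give. By GENCODE, 11 of the 76 matched members have a longest coding transcript of 1500 bases or more. These had a median of 43.77 FPKM, against 98.51 FPKM for the other 65, and 6 of them were under 50 FPKM. Their median differences between the groups were -0.01 and -0.03. The longer transcripts were thus listed at lower levels, and the part of length in this was not tested.

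**Figure D4:**
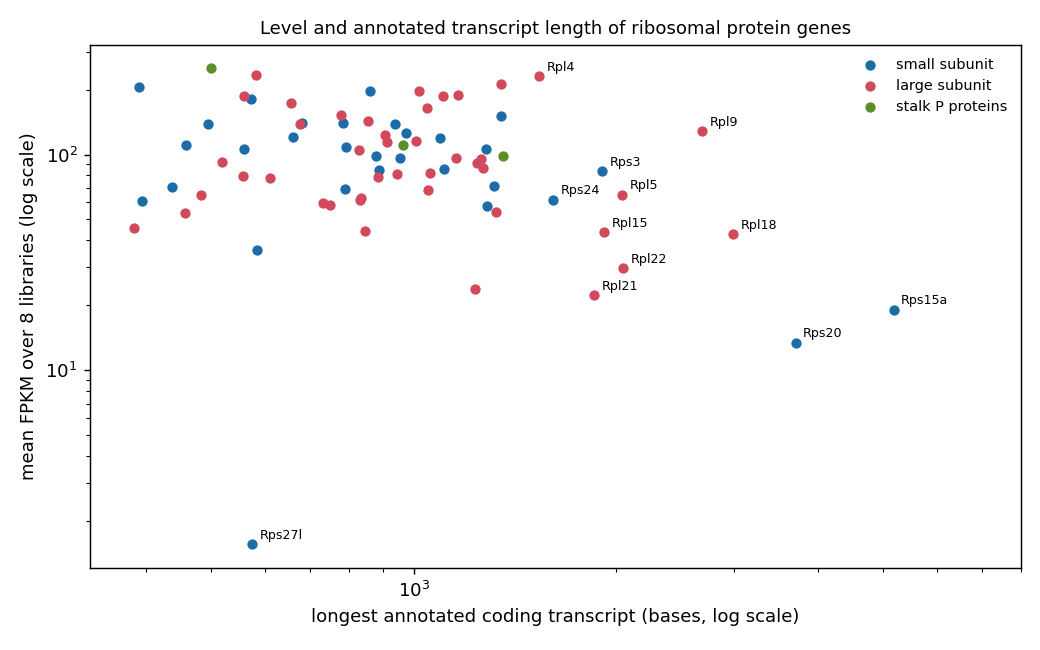
Mean FPKM over the 8 libraries against the longest annotated coding transcript for 76 members, both on log scales, coloured by subunit; names mark transcripts of 1500 bases or more and the lowest levels. The 11 longest have a median of 43.77 FPKM and the 65 shorter ones 98.51 FPKM.

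Ribosomal protein genes are also known for their many processed copies in the genome, which can draw reads away from them. A median of 30.4% of a member's 100-base windows occurred in the transcript of another annotated gene, and 22 members shared 50% or more. Those 22 had a median level of 108.2 FPKM and a median difference of -0.05, and the 9 members sharing under 5% had 60.6 FPKM and -0.03. The 6 members with an unadjusted p under 0.05 were spread over these classes, with 3 among the 22 and 2 among the 9, and the levels of the 22 are uncertain for this reason. Of 9 pseudogenes named after members in the table, 1 reached 1 FPKM. The members lay on 19 chromosomes, 4 of them on X. Within 28 of them the annotation places 53 small nucleolar RNA genes, up to 5 in Rpl4. The median difference was -0.01 for members with such genes and -0.04 for those without.

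The genes that share the TOP motif or serve the ribosome gave the setting for these values. Of 16 elongation factors and other TOP messenger RNAs, 0 passed in either direction and the median difference was 0.01, and 0 of them had an unadjusted p under 0.05. Of 9 tested paralogs and ribosomal genes under other names, 0 passed and 0 had an unadjusted p under 0.05, with a median of 0.01. These 9 include Rps27l, which is also a member. Over all genes tested, 4.76% passed and 22.6% had an unadjusted p under 0.05. At the first of these shares, lists as short as these would often hold no called gene. Rack1, a signalling scaffold on the small subunit, differed by -0.11 (limma adjusted p = 0.4995), and Rpl22l1, the paralog of Rpl22, by 0.11 (adjusted p = 0.471). Of the TOP messenger RNAs, Eif3f, an initiation factor subunit, had the smallest p, with a difference of 0.17 (adjusted p = 0.272).

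Of 8 noncoding TOP genes that host small nucleolar RNAs, 1 passed. Gas5, whose spliced RNA is degraded in step with translation, had 70.0, 82.1, 65.3 and 58.4 FPKM in AAV2-scramble 1 to 4 and 123.4, 115.1, 94.2 and 111.2 FPKM in AAV2-shCX36 1 to 4. All AAV2-shCX36 libraries lay above all AAV2-scramble libraries, at 111 ± 12.3 against 68.9 ± 9.98 FPKM (SD, n = 4 each). Gas5 rose by 0.68 on the log2 scale (SE 0.11, limma adjusted p = 0.0148). The call was lost without AAV2-scramble 3, AAV2-shCX36 1 or AAV2-shCX36 2, at adjusted p of 0.0510, 0.0507 and 0.0573. The median of the 8 was 0.08 and all 8 differences were positive, where 52.4% of all genes tested were positive and 4.76% were called. The next, Zfas1, differed by 0.27 (adjusted p = 0.247).

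Among the genes that make ribosomes, 0 of 14 RNA polymerase I genes and 0 of 38 ribosome assembly genes passed, with medians of -0.01 and 0.05. In the first list 1 gene was higher and 3 lower at an unadjusted p under 0.05, and in the second 4 were higher and 1 lower, where 12.3% of all genes tested were higher and 10.3% lower. Rrp12, which acts in the export of subunits from the nucleus, had 3.16, 2.99, 3.30 and 3.92 FPKM in AAV2-scramble 1 to 4 and 5.09, 4.63, 5.45 and 4.13 FPKM in AAV2-shCX36 1 to 4. The groups did not overlap, and the difference of 0.42 had a limma adjusted p of 0.0523. Without AAV2-scramble 4 the adjusted p was 0.0292. Gar1, of the pseudouridine-adding particles, differed by 0.24 (adjusted p = 0.116) and Taf1a, of the RNA polymerase I promoter factor, by 0.27 (adjusted p = 0.137).

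For the control of TOP translation, 0 of 19 mTORC1 and TOP control genes passed, 3 were higher (15.8%, against 12.3% of all genes) and 0 lower at an unadjusted p under 0.05, and the median was 0.10. Larp1, the protein that binds the TOP motif, had 26.7, 26.5, 26.9 and 26.7 FPKM in AAV2-scramble 1 to 4 and 29.4, 32.1, 31.7 and 29.1 FPKM in AAV2-shCX36 1 to 4. The AAV2-scramble libraries were nearly alike and all below AAV2-shCX36, with a difference of 0.19 (SE 0.05, limma adjusted p = 0.0824). Rptor, the substrate-binding subunit of mTORC1, differed by 0.19 (adjusted p = 0.154).

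Of 12 stalled ribosome rescue genes, 1 passed, 2 were higher and 0 lower at an unadjusted p under 0.05, and the median was 0.03. Over all genes tested, 4.76% passed, and 12.3% were higher and 10.3% lower at that unadjusted p. Zfand2a, a proteasome partner that arsenite induces, had 22.5, 18.7, 21.6 and 24.1 FPKM in AAV2-scramble 1 to 4 and 30.0, 27.8, 27.2 and 27.2 FPKM in AAV2-shCX36 1 to 4. The groups did not overlap, and Zfand2a rose by 0.36 on the log2 scale (SE 0.08, limma adjusted p = 0.0381). It acts in protein quality control at large rather than on ribosomes alone, and its call was kept in 11 of 22 alternatives. Pelo, which opens stalled ribosomes, differed by 0.31 (adjusted p = 0.121).

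The p53 and MYC lists bear on stress at, and supply of, ribosomes. Of 9 p53 response genes 0 passed and 1, Phlda3, was higher at an unadjusted p under 0.05, with a difference of 0.25 (limma adjusted p = 0.132). Over all genes tested, 12.3% were higher and 10.3% lower at that unadjusted p. Of 7 MYC family genes 0 passed, with a median of -0.19, and 2 were lower at an unadjusted p under 0.05. These were Max, the common partner of the family, with a difference of -0.21 (adjusted p = 0.0968), and Mxd1, which opposes MYC at the same sites, with -0.30 (adjusted p = 0.126). The plot of the lists sets these beside the members.

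**Figure D5:**
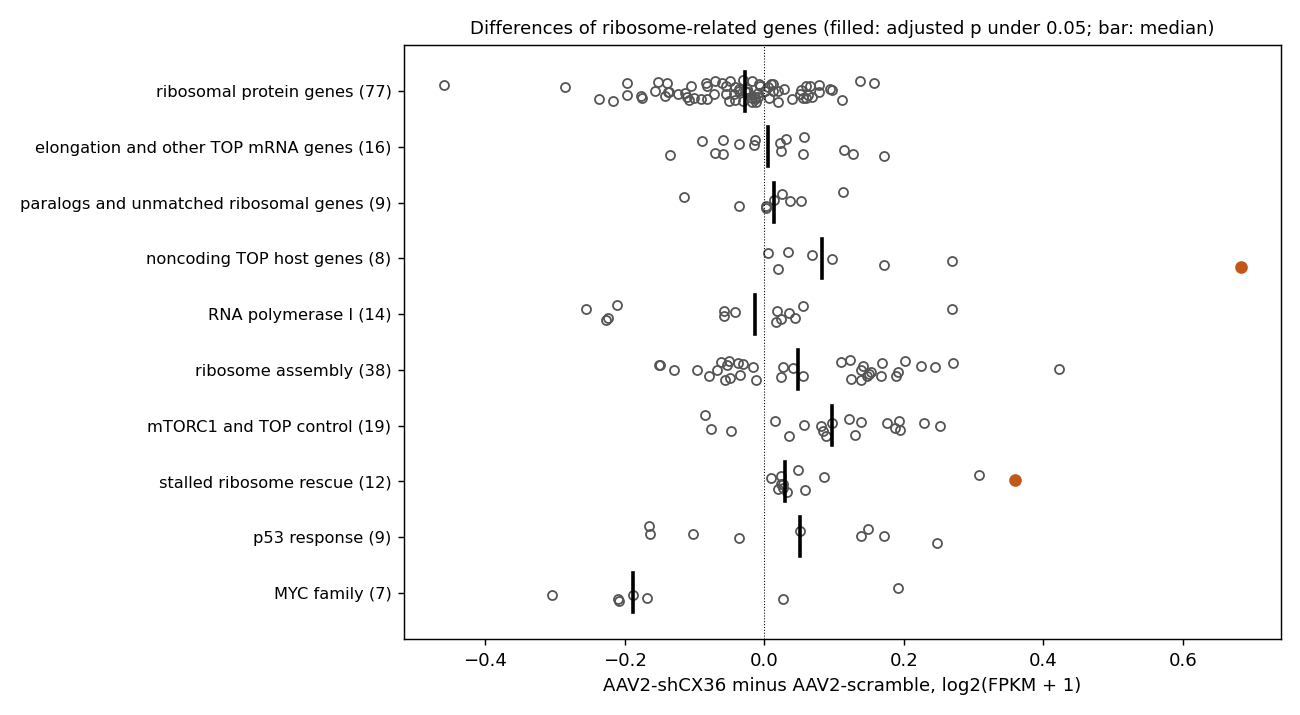
Difference between AAV2-shCX36 and AAV2-scramble (n = 4 each) in log2(FPKM + 1) for the 77 members and the 9 lists of related genes, 1 point per tested gene, filled where the limma adjusted p was under 0.05, with the median of each list as a bar. Only Gas5 and Zfand2a are filled, at 0.68 and 0.36, and the members lie between -0.46 and 0.16. Rps27l is shown both as a member and among the paralogs.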

How the data were processed

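RNA sequencing of 8 mouse retina libraries gave 1 table of FPKM values, deposited by the authors with a column per library. Total RNA was taken with a column kit and sequenced as paired ends, per the labels' protocols. fastp, HISAT2, HTSeq, DESeq2 and R 3.2.0, with the builds GRCm38 and mm10, are named without roles per the submitters' processing notes. The library kit, strandedness, gene lengths and annotation behind the FPKM are not given in the sources used here. The table has 0 value columns that match no sample. It holds no counts, so depth is not known exactly: of 649 low values of single-exon genes, 82 pointed to about 37600000 fragments a library, too loosely to recover reads.

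Groups came from the titles. Values were tested as log2(FPKM + 1) with limma 3.58.1 (lmFit, eBayes with trend) in R 4.3.3 over the 12858 genes whose mean reached 1 FPKM, with Benjamini-Hochberg adjustment over them all and a threshold of 0.05. The pseudocount of 1 understates changes of low genes. Differences are AAV2-shCX36 minus AAV2-scramble. The fit was run on simulated data with independent noise per gene and library. Such data lack the shifts shared by many genes of a library, so the run does not bear on them. The members, gene lists and rule for named genes were chosen with earlier results of these data known. Named genes were members past the threshold (none was), the 3 smallest p per direction and subunit, the 5 highest and 3 lowest members, the 3 with the largest SD, those at the 1 FPKM minimum, and per list the called genes and the 2 smallest p. Marker lists covered ganglion, rod, cone, bipolar, amacrine, Müller, microglial, oligodendrocyte, lens, pigment epithelium, blood, lymphocyte and vessel genes. Lists are described by counts and medians, with no set test. Figures and sequence features used Python 3.11.15, pandas 2.3.3, numpy 2.4.6, matplotlib 3.10.9, GENCODE vM21 and RefSeq GRCm38.p6 start windows. No library pair held identical values. Alternatives covered pseudocount, filter, scaling, variance model, library weights, a replicate block, the threshold, membership and libraries left out. Centring on the members' mean was added after the data were seen. A few genes are counted in the totals but not reported here by name.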

Additional observations from a re-analysis of the deposited data

Results flagged for a closer look

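Dixon's gap test was applied to 86 groups of 4 libraries, of which chance picks about 1 in 20, and it picked 4 single libraries. Rps7 had 92.7 FPKM in AAV2-shCX36 2, against 99.7 to 100.4 FPKM in the other 3. Rpl34 had 24.9 FPKM in AAV2-shCX36 4, against 20.5 to 20.9 FPKM. Rplp2 had 88.4 FPKM in AAV2-scramble 3, against 110.3 to 112.5 FPKM. Pelo had 10.3 FPKM in AAV2-shCX36 3, against 11.7 to 11.8 FPKM. Each is 1 library of a gene that did not pass the adjusted threshold, and the first 2 follow the order of libraries in which AAV2-shCX36 2 was low and AAV2-shCX36 4 high for most members.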

How the results depend on the processing

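No member was called higher under any alternative. The number called lower, 0 in the main analysis, was 2 at an adjusted p under 0.1 (Rps27a and Rpl9), 1 with a filter of 5 FPKM (Rps27a, adjusted p = 0.0499), 1 with library weights (Rps27a, 0.0417), 1 with quantile normalization (Rpl9, 0.0429) and 3 without AAV2-scramble 3 and 4 (Rps27a 0.0150, Rpl9 0.0321, Rpl34 0.0387). Leaving out single libraries gave 0 to 1, the 1 being Rps27a without AAV2-scramble 4. Rps27a was negative in all 22 alternatives other than centring on the members' mean, at limma adjusted p from 0.0150 to 0.2902, and Rpl9 at 0.0321 to 0.210. The members' median moved to -0.12 without AAV2-shCX36 1 and 4. These libraries had the highest member levels of their group (6.44 and 6.51), so leaving them out lowers that median by itself. They were also the highest in lens markers (1.86 and 2.56). The members' median ran from -0.07 to 0.01 without single libraries, and was 0.02 after that centring. Gas5 was called in 18 of 22 alternatives (adjusted p 0.00482 to 0.164) and Zfand2a in 11 (0.0104 to 0.251). The 612 calls over all genes became 1153 at 0.1, 311 without a filter, 354 after that centring (205 higher and 149 lower), 942 without AAV2-scramble 1 and 2, 3441 without AAV2-scramble 3 and 4, 106 without AAV2-shCX36 1 and 4, and 171 to 1162 without single libraries. The causes were not tested. With the replicate number as a block there were 164, with 0 members. Same-numbered libraries correlated at 0.128, -0.302, 0.226 and -0.269, and 1 of 4 numbers correlated best with itself, so the numbers were not taken as pairs. FPKM without counts gives no sampling error for single values, which matters most for low genes such as Rps27l.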
